A study of Homo sapiens with 4 samples.

Results

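The 8 genes that encode the subunits of TRiC, the cytosolic chaperonin also called CCT, were followed in MM.1S cells, an established human multiple myeloma line. The members are TCP1, CCT2, CCT3, CCT4, CCT5, CCT6A, CCT7 and CCT8, picked by symbol, and each occurs once among the 16057 genes of the deposited table. Cells were exposed for 26 h to 350 nM JG342, an allosteric inhibitor of HSP70, or to its solvent DMSO, with 2 libraries per treatment that the study describes as biological duplicates. Both groups were the same line in the same serum-supplemented medium and differ in the labels by treatment alone, so the results describe 1 line in culture.

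TRiC is built from a pair of stacked rings, each made of 8 related subunits that occupy fixed places. Unfolded proteins enter the cavity, and binding and hydrolysis of ATP close a lid formed by the subunits themselves, so that the protein can fold inside. Actin and tubulin are its best known clients, and many proteins with WD40 repeats also depend on it. HSP70 and prefoldin, a jellyfish-shaped co-chaperone, hand unfolded proteins over to it. Each ring needs every subunit, and genes of the complex are known targets of the heat shock factor HSF1.

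Levels are in TPM, which divides by transcript length and scales to a fixed library total, so the subunits can be compared with each other, while a total change of RNA per cell is not visible. The TPM totals ran from 994463 to 994718 and record no sequencing depth. All 9 listed plasma cell and myeloma markers were present, with mean DMSO levels from 27.6 TPM (CD38) to 10145 TPM (JCHAIN). Their summed level was 13388 to 13550 TPM in DMSO and 8749 to 9498 TPM in JG342. JCHAIN carried this difference, since the other 8 summed to 3005 and 3643 TPM in DMSO and to 3318 and 3767 TPM in JG342. By the gene test described further on, IRF4 and PRDM1 passed as higher, JCHAIN and TNFRSF17 as lower, and 5 did not pass. Over all fitted genes 10.8% passed as higher and 7.62% as lower. PRDM1 and TNFRSF17 were near the threshold of 0.05 (limma adjusted p 0.0410 and 0.0472). Of the 9 markers of B, T, myeloid, fibroblast and epithelial cells in the table, 6 were under 1 TPM in every library, and COL1A2 was at 0 in both DMSO libraries. Among the rest LYZ was the highest at 41.0 TPM in DMSO, and the 9 summed to 45.4 to 56.9 TPM in DMSO and 45.7 to 53.1 TPM in JG342. The part of these shifts in the results for TRiC was not tested. In bulk RNA, fewer cells of a type and less RNA per cell cannot be told apart.

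Promoter windows are shown for TCP1 and CCT2, the subunit genes with the largest falls, and for CCT4, whose start lies close to that of a gene that did not move with it. Each window has 300 bases, 250 before the annotated start and 50 from it, on the gene's own strand, from RefSeq on GRCh38.p14. Capitals mark matches to any of 8 short motifs searched on both strands.

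TCP1, chr6:159789553-159789852, minus strand: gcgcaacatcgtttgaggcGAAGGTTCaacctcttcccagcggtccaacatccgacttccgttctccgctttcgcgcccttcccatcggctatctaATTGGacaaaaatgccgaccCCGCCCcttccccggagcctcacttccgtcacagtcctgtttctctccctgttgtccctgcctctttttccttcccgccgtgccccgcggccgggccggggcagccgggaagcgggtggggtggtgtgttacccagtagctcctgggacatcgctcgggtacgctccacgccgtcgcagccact
CCT2, first annotated start, chr12:69585209-69585508, plus strand: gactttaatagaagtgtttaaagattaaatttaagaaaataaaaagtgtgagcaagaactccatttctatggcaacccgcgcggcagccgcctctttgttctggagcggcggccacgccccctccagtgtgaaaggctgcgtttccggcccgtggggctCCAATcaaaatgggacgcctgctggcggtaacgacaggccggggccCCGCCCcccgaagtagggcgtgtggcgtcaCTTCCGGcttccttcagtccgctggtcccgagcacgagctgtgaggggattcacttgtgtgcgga
CCT2, second annotated start, chr12:69585639-69585938, plus strand: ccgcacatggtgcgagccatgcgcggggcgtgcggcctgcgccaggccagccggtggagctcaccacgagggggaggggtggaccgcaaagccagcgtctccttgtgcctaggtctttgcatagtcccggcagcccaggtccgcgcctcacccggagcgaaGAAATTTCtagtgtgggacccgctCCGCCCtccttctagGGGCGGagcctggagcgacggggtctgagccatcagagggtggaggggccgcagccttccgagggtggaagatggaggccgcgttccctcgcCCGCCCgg
CCT4, 1 of its 2 annotated starts, chr2:61888607-61888906, minus strand: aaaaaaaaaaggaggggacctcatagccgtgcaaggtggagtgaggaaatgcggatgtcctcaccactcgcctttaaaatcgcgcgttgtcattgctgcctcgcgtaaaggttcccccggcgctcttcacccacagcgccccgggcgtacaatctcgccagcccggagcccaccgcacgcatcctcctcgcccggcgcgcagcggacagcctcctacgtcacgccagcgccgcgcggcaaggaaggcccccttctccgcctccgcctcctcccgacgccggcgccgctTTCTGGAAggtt

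The table of RefSeq promoters held 9 windows for 7 of the 8 genes, and no window for CCT6A. A match is a string of letters and not evidence of binding. The GC box GGGCGG occurred in 6 of the 9 windows, belonging to CCT2, CCT3, CCT7, CCT8 and TCP1, against 45% of all 35116 windows. The CCAAT box occurred in 4 windows (CCT2, CCT3, CCT8 and TCP1), against 34.6%. A pair of heat shock units facing each other, GAANNTTC, was found in TCP1, as GAAGGTTC starting 231 bases before the start, and in the second CCT2 window, as GAAATTTC starting 89 bases before it, against 6.77% of all windows. The other arrangement, TTCNNGAA, was found in CCT4, as TTCTGGAA that begins 38 bases past the start, against 7.74%. CCT4 has another annotated start, and its window, chr2:61888622-61888921, held none of the 8 motifs. That window overlaps the one shown and ends before the bases TTCTGGAA, so the match lies outside it. An ETS motif, CCGGAAG, was in the first CCT2 window on the reverse strand and in 10.3% of all windows. None of the 9 windows held the E box CACGTG (7.26% of all windows), the cAMP response element TGACGTCA (1.85%) or the core of the amino acid response element TGATGNAA (3.62%). Overlapping matches were counted separately.

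The TRiC transcripts were abundant, and their levels were unequal. In DMSO they ranged from 189 ± 4.22 TPM (SD, n = 2) for TCP1 to 533 ± 6.30 TPM for CCT3, and the highest was 2.84 and 2.80 times the lowest in the 2 libraries. CCT3 ranked 245 and 246 among all genes in the DMSO libraries, and TCP1 ranked 788 in both. From high to low the order in DMSO was CCT3, CCT7, CCT8, CCT2, CCT6A, CCT4, CCT5 and TCP1. This order was the same in both DMSO libraries, and no 2 neighbours in it had overlapping library values. CCT2 and CCT6A came closest, since the lower CCT2 library (326.4 TPM) and the higher CCT6A library (325.8 TPM) nearly met.

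**Figure D1:**
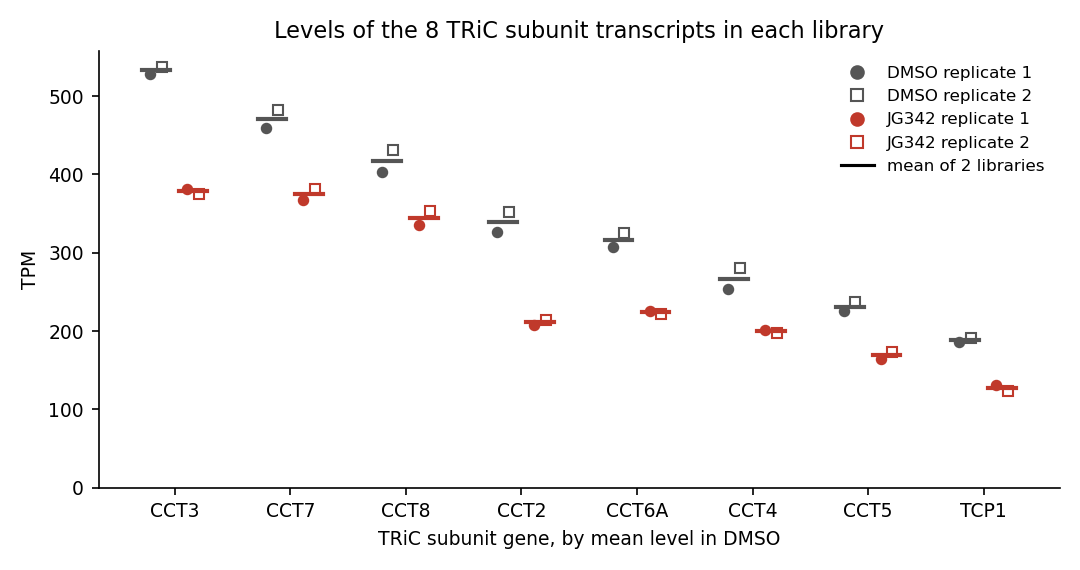
TPM (linear axis from 0) of each TRiC subunit gene in the 4 libraries, with DMSO in grey, JG342 in red, and short bars for the mean of 2 libraries. For all 8 genes both JG342 points lie below both DMSO points.

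After JG342 the transcripts of TRiC were lower as a set. The summed level of the 8 genes stood at 2689 and 2838 TPM with DMSO and at 2017 and 2042 TPM with JG342. Both JG342 sums lay well below both DMSO sums. The mean went from 2764 ± 105 TPM (SD, n = 2) to 2030 ± 17.6 TPM, which is −26.6%, and from 0.270% and 0.285% of the library total to 0.203% and 0.205%. With 2 libraries against 2 an exact permutation test cannot go below p = 0.333 (two-sided), and no other test of the sum was run.

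Across all fitted genes, limma on log2(TPM + 1) with Benjamini-Hochberg adjustment gave 7 of the 8 subunit genes as lower at an adjusted p under 0.05, and none as higher. Over all 12042 genes fitted, 18.4% passed in either direction, 7.62% as lower and 10.8% as higher. Both JG342 libraries were below both DMSO libraries for 8 of 8 subunit genes, against 28.2% of all genes. The median log2 change of the 8 was −0.47, with a range of −0.68 to −0.28, beside a median of 0.03 over all genes. In the libraries numbered 1 the members' median was −0.44, and in those numbered 2 it was −0.51. The count of 7 depended on single libraries. Without DMSO replicate 2, only TCP1 and CCT2 passed (2 genes), and without DMSO replicate 1 CCT5 and CCT7 were lost (5 passed). Without JG342 replicate 1 CCT7 was lost (6 passed), and without JG342 replicate 2 CCT4 and CCT7 were lost (5 passed). A fit without a trend of variance on level gave 4.

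CCT2, the beta subunit, which has also been described as a receptor for protein aggregates in autophagy, fell the most of the 8. It measured 326 and 352 TPM with DMSO and 208 and 214 TPM with JG342. The groups were far apart, and the lowest DMSO value exceeded the highest JG342 value by more than the spread within either group. The log2 change was −0.68 ± 0.09 SE (limma adjusted p 0.00219), a mean level that fell by 37.6%. By log2 change it ranked 249 from the lowest of the 12042 genes.

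TCP1, the alpha subunit and the founding member of the family, first described at the mouse t-complex, had the next largest fall. Its levels were 186 and 192 TPM in DMSO and 131 and 124 TPM in JG342. The groups did not overlap, and TCP1 was the lowest subunit in every library. The log2 change was −0.56 ± 0.09 SE (limma adjusted p 0.00519), or −32.4% of the mean level.

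CCT6A, the zeta subunit of most tissues, had 308 and 326 TPM in DMSO and 226 and 222 TPM in JG342. CCT3, the gamma subunit and the highest of the set in DMSO, had 528 and 537 TPM in DMSO and 382 and 375 TPM in JG342. For both genes the 2 libraries of a treatment were close and the treatments were separate. Their log2 changes were nearly equal, at −0.50 ± 0.09 SE for CCT6A (limma adjusted p 0.00738) and −0.49 ± 0.09 SE for CCT3 (limma adjusted p 0.00659).

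CCT5, the epsilon subunit, in which mutations cause a hereditary sensory neuropathy with spasticity, had 225 and 237 TPM in DMSO and 165 and 174 TPM in JG342. CCT4, the delta subunit, which is mutated in a rat sensory neuropathy, had 253 and 281 TPM in DMSO and 202 and 197 TPM in JG342. Neither gene overlapped between treatments. CCT5 changed by almost the same amount in both numbered pairs, −0.45 and −0.45 on the log2 scale, and its estimate was −0.45 ± 0.09 SE (limma adjusted p 0.0120). The pairs differed more for CCT4, at −0.33 and −0.51, with an estimate of −0.42 ± 0.09 SE (limma adjusted p 0.0178).

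CCT7 and CCT8, the eta and theta subunits, changed least. CCT7 had 459 and 482 TPM in DMSO and 368 and 382 TPM in JG342. CCT8 had 403 and 432 TPM in DMSO and 335 and 354 TPM in JG342. In both genes replicate 2 was above replicate 1 in each treatment, and the treatments did not overlap. CCT7 passed the threshold with a log2 change of −0.33 ± 0.09 SE (limma adjusted p 0.0336). CCT8 did not pass, at −0.28 ± 0.09 SE (limma adjusted p 0.0666). In a fit blocked on the replicate number CCT8 passed (limma adjusted p 0.00259), as it did with libraries scaled to equal medians (limma adjusted p 0.0469).

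**Figure D2:**
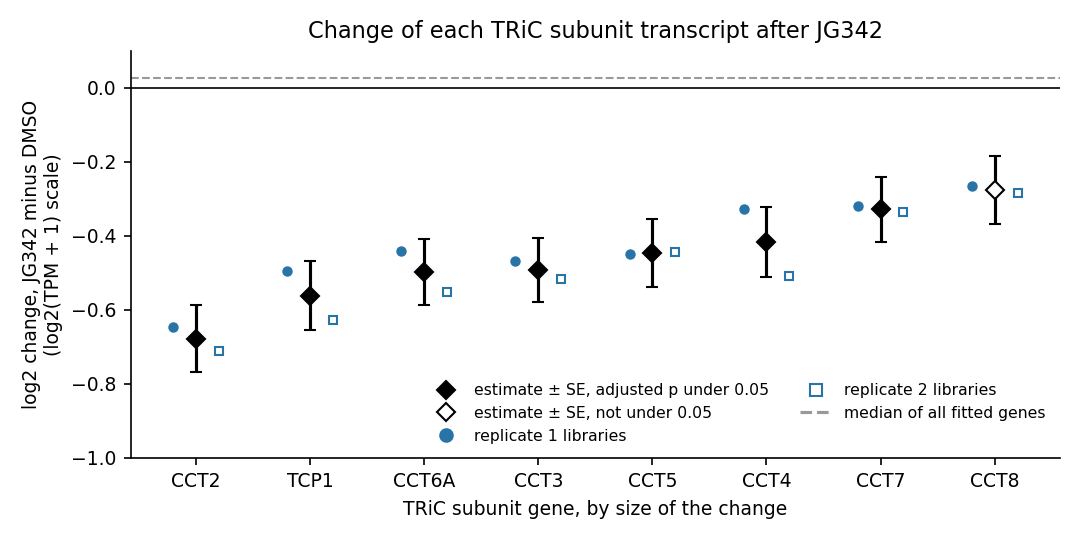
Log2 change of each TRiC subunit gene, JG342 minus DMSO on the log2(TPM + 1) scale, with the estimate and its SE as diamonds and the change within libraries of the same number as blue points. All 8 estimates lie between −0.68 and −0.28, under the dashed median of all fitted genes at 0.03, and CCT8 alone is drawn open.

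The falls were unequal, so the make-up of the TRiC transcripts shifted. CCT2 held 12.1% and 12.4% of the summed subunit TPM with DMSO and 10.3% and 10.5% with JG342. CCT8 held 15.0% and 15.2% in DMSO and 16.6% and 17.3% in JG342, and CCT7 held 17.1% and 17.0% in DMSO and 18.2% and 18.7% in JG342. For these 3 genes the shares of the treatments were apart, and they moved in opposite directions, down for CCT2 and up for CCT7 and CCT8. The shares of TCP1 and CCT6A were lower in both JG342 libraries by smaller amounts, a mean of −0.54 and −0.42 percentage points. The shares of CCT3, CCT4 and CCT5 overlapped between treatments. Shares of 1 sum are not independent of each other, and their differences were not tested.

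The order of levels also changed. In JG342 it ran CCT3, CCT7, CCT8, CCT6A, CCT2, CCT4, CCT5 and TCP1. CCT2 was number 4 of the 8 in both DMSO libraries and number 5 in both JG342 libraries, where it changed places with CCT6A. CCT3 and CCT7 overlapped in JG342, at 379 ± 4.72 and 375 ± 9.92 TPM (SD, n = 2), and CCT7 was the higher of the pair in JG342 replicate 2. The ratio of the highest to the lowest subunit was 2.91 and 3.08 in the JG342 libraries.

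**Figure D3:**
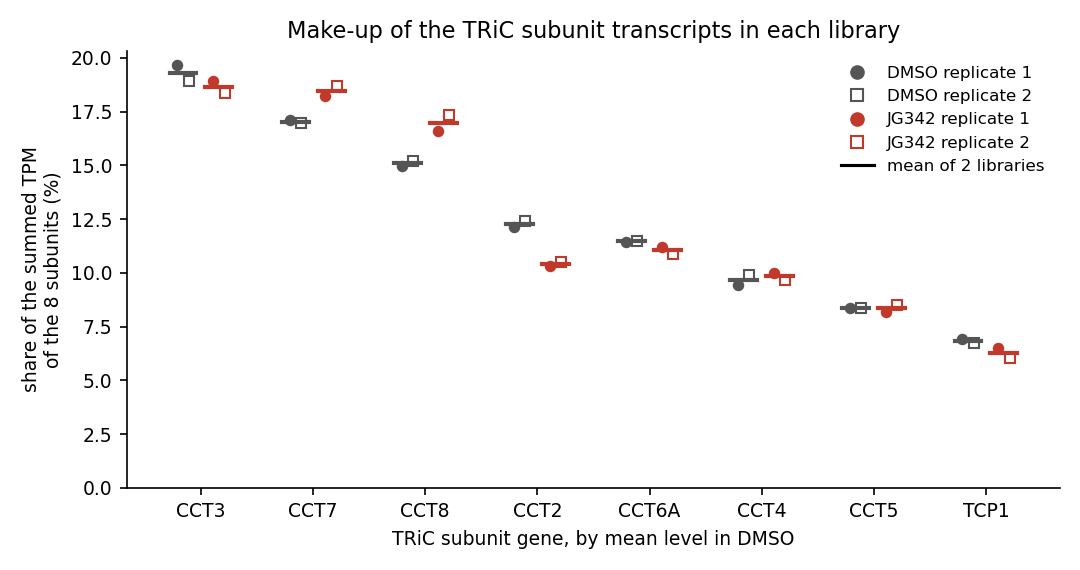
Share of each TRiC subunit gene in the summed TPM of the 8 (percent, linear axis from 0) in the 4 libraries, DMSO in grey and JG342 in red, with bars for the mean of 2 libraries. CCT2 has a lower share in both JG342 libraries, and CCT7 and CCT8 have higher shares.

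The neighbours of the subunit genes were read from the RefSeq gene tables, since genes that start head to head share a promoter region and reads of overlapping genes may not be separable. No source used here states whether counting used strand. TCP1 starts 210 bases from MRPL18 on the other strand, a gene for a protein of the large mitochondrial ribosome subunit. MRPL18 had 145 and 136 TPM in DMSO and 99.2 and 99.4 TPM in JG342. It was lower in both JG342 libraries, with a log2 change of −0.49 ± 0.09 SE (limma adjusted p 0.00915; 0.0671 without DMSO replicate 1). On the other side TCP1 overlaps ACAT2, an acetyl-CoA acetyltransferase of the cytosol that feeds sterol synthesis, by 615 bases. ACAT2 had 75.4 and 79.4 TPM in DMSO and 55.6 and 49.1 TPM in JG342. It was also lower, by a log2 change of −0.56 ± 0.11 SE (limma adjusted p 0.00974; 0.0766 without DMSO replicate 2). All 3 genes of this locus thus passed as lower, and how far reads of the overlap were shared between TCP1 and ACAT2 was not tested.

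CCT4 differed from its neighbour. COMMD1, a regulator of copper handling and NF-kB, starts 54 bases from CCT4 on the other strand. COMMD1 had 49.5 and 46.7 TPM in DMSO and 55.0 and 50.3 TPM in JG342. The JG342 values were the higher ones, and the estimate of 0.13 ± 0.11 SE did not pass (limma adjusted p 0.444). TSACC, which starts 234 bases from CCT3, was low at 5.57 and 3.41 TPM in DMSO and 4.47 and 2.22 TPM in JG342. Its groups overlapped, and the change of −0.36 ± 0.28 SE did not pass (limma adjusted p 0.408). COMMD1 and TSACC also overlap the annotated spans of CCT4 and CCT3, by 281 and 979 bases.

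**Figure D4:**
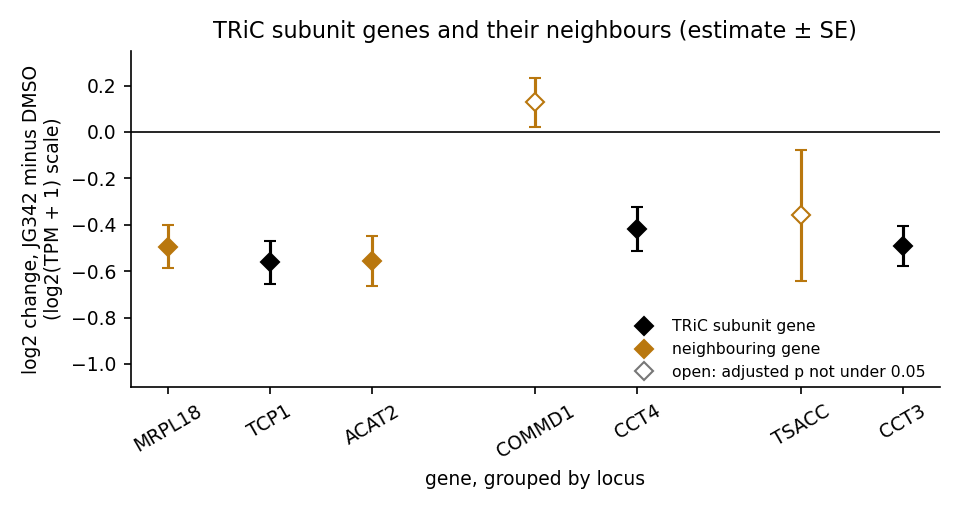
Log2 change ± SE, JG342 minus DMSO on the log2(TPM + 1) scale, of 3 TRiC subunit genes (black) and their neighbouring genes (brown), grouped by locus, with open symbols where the adjusted p was not under 0.05. MRPL18, TCP1 and ACAT2 lie between −0.56 and −0.49, whereas COMMD1 lies above 0 beside CCT4 at −0.42.

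Other chaperonin genes gave calls in both directions. CCT6B, the testis-enriched form of the zeta subunit, was low, with 2.66 and 3.09 TPM in DMSO and 7.03 and 5.90 TPM in JG342. It was higher in both JG342 libraries, by 0.94 ± 0.18 SE (limma adjusted p 0.00852; 0.0524 without DMSO replicate 1), while CCT6A fell. Even after JG342 its level was far below the 224 ± 3.20 TPM (SD, n = 2) of CCT6A. HSPE1, the lid of the mitochondrial chaperonin, had a log2 change of −0.45 ± 0.12 SE and passed as lower (limma adjusted p 0.0293), a call lost without DMSO replicate 1, DMSO replicate 2 or JG342 replicate 1 (limma adjusted p 0.0911, 0.168 and 0.129). Its partner HSPD1 was at 987 ± 8.86 TPM (SD, n = 2) in DMSO and 1018 ± 26.8 TPM in JG342 and did not pass. Of the 6 fitted genes on this list 1 passed as higher and 1 as lower, beside 10.8% and 7.62% of all fitted genes. The median of the list was 0.17, and CCT8L2 was at 0 in 3 of the 4 libraries and was not fitted.

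No gene passed on 4 lists of TRiC partners, against 18.4% of all fitted genes. These lists hold prefoldin and other cofactors and no HSP70 gene. None of the 6 prefoldin subunits passed (median −0.12), and the highest, PFDN5, had 332 ± 10.7 TPM (SD, n = 2) in DMSO and 361 ± 7.71 TPM in JG342. None of the 8 fitted genes of the prefoldin-like complex, which helps to assemble RNA polymerases with the ATPases RUVBL1 and RUVBL2, passed (median −0.16). Both libraries of JG342 were below both of DMSO for 6 of these 8, against 28.2% of all genes. The same count was 2 of 6 for prefoldin, 2 of 5 for phosducin-like and other cofactors, and 1 of 7 for tubulin cofactors. UXT, the highest of the prefoldin-like complex, was at 258 ± 5.59 and 288 ± 7.59 TPM. None of the 5 phosducin-like and other cofactors passed (median −0.13), with PDCD5 the highest at 266 ± 6.54 and 256 ± 23.6 TPM. None of the 7 tubulin cofactors, which take tubulin from TRiC and pair its chains, passed (median 0.14), and TBCA was at 340 ± 10.8 and 343 ± 1.50 TPM. At an unadjusted limma p under 0.05 these lists held 1, 2, 2 and 3 genes in the order given. The share of all fitted genes at that level was not counted and is larger than the 18.4% that passed after adjustment. These counts therefore cannot be called high or low. A missed threshold in 2 libraries against 2 does not show that these genes did not change.

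Transcripts of the most abundant tubulins, which are main clients of TRiC, fell. Of the 18 tubulin genes on the list, which is not complete, 14 were fitted. Among them 5 passed as lower and 1 as higher, with a median of −0.39, beside 7.62% and 10.8% of all fitted genes. TUBA1B, an alpha-tubulin and the highest of them, had 2420 and 2506 TPM in DMSO and 1476 and 1421 TPM in JG342. The groups were widely apart, with a log2 change of −0.77 ± 0.09 SE (limma adjusted p 0.00121). TUBB, the main beta-tubulin here, averaged 1810 ± 111 TPM (SD, n = 2) with DMSO and 1127 ± 59.1 TPM with JG342, a log2 change of −0.68 ± 0.10 SE (limma adjusted p 0.00257). TUBA4A, TUBA1C and TUBB4B fell by −0.82, −0.64 and −0.64, with limma adjusted p of 0.000981, 0.00377 and 0.00265. TUBB2B rose from 13.0 ± 2.52 to 23.2 ± 2.31 TPM, by 0.80 ± 0.16 SE (limma adjusted p 0.0103; 0.0803 without DMSO replicate 2). TUBE1, a tubulin gene left off the list, rose by 2.29 ± 0.27 SE (limma adjusted p 0.00118) and is not in these counts or the median. Tubulin genes are similar in sequence, so the value of each is uncertain.

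Actin transcripts did not pass. None of the 6 fitted actin and actin-related genes was called by limma (median −0.12), against 18.4% of all fitted genes. Of the 6, 1 actin-related gene had an unadjusted limma p under 0.05. The share of all genes at that unadjusted level was not counted, so this count cannot be called high or low. ACTB, cytoplasmic beta-actin, had 3759 and 4472 TPM in DMSO and 3053 and 4224 TPM in JG342. Replicate 2 was the higher library in each treatment and the treatments overlapped, with an estimate of −0.19 ± 0.16 SE (limma adjusted p 0.426; blocking on the replicate number, 0.0268, and with equal medians in addition, 0.183). Of 15 clients with WD40 repeats, 2 were called higher, 2 lower and 11 not called (median −0.11). Over all fitted genes 10.8% were called higher and 7.62% lower. RACK1, a ribosome-bound scaffold, rose by 0.52 ± 0.11 SE (limma adjusted p 0.0127), and its call was lost without DMSO replicate 1 (0.121), without DMSO replicate 2 (0.0672) and with equal medians (0.0530). GNB5, a G protein beta subunit, rose by 0.66 ± 0.12 SE (limma adjusted p 0.00776; 0.0597 without DMSO replicate 2). GNB3 was low, at 6.25 and 6.32 TPM in DMSO and 3.27 and 4.06 TPM in JG342. BUB3, a spindle checkpoint protein, fell by −0.38 ± 0.09 SE, and GNB3 by −0.65 ± 0.17 SE (limma adjusted p 0.0251 and 0.0313). Neither passed without DMSO replicate 1, DMSO replicate 2 or JG342 replicate 1, where the limma adjusted p ran from 0.0806 to 0.169 for BUB3 and from 0.111 to 0.146 for GNB3.

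Among 8 other fitted clients 2 passed as higher and 2 as lower (median 0.07), beside 10.8% and 7.62% of all fitted genes. STAT3, a transcription factor downstream of IL6, had 21.4 and 21.9 TPM in DMSO and 36.9 and 32.5 TPM in JG342. The groups were apart, and it rose by 0.66 ± 0.12 SE (limma adjusted p 0.00798). CCNE1, the cyclin E1 gene, fell by −0.73 ± 0.18 SE and KIF18A, a mitotic kinesin, by −0.60 ± 0.16 SE (limma adjusted p 0.0221 and 0.0311). CCNE1 did not pass without DMSO replicate 2 or JG342 replicate 1 (limma adjusted p 0.151 and 0.0745). KIF18A did not pass without DMSO replicate 1, DMSO replicate 2 or JG342 replicate 1 (limma adjusted p 0.0825, 0.187 and 0.121).

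**Figure D5:**
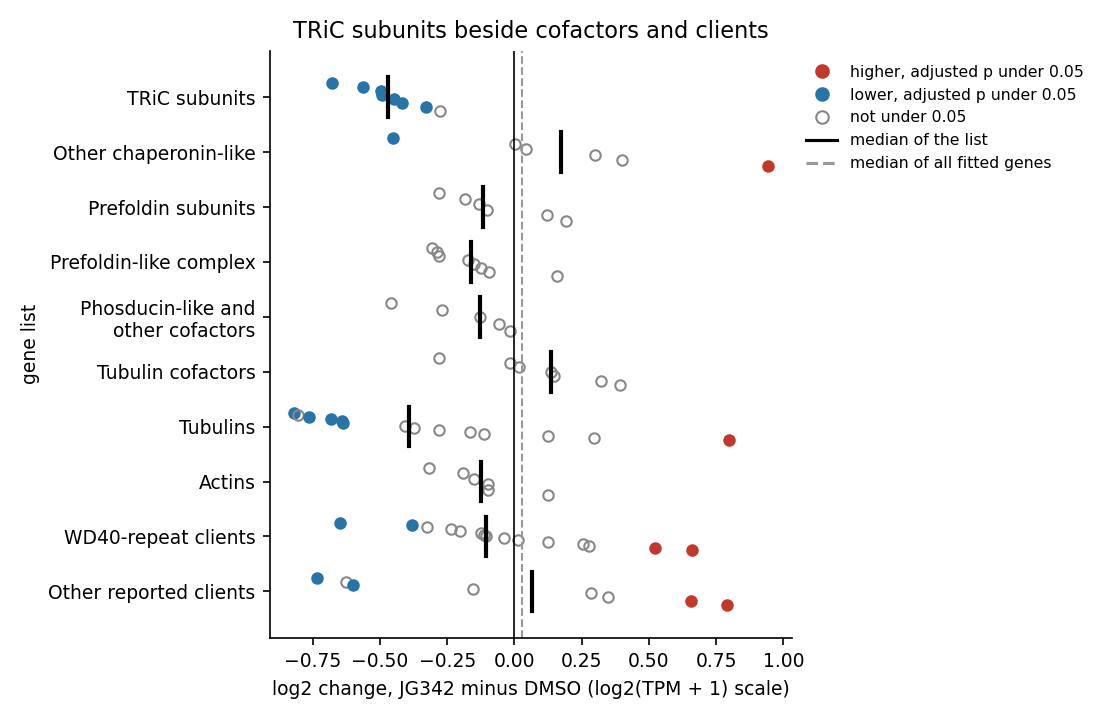
Log2 change, JG342 minus DMSO on the log2(TPM + 1) scale, of each fitted gene (points) in the TRiC subunits and 9 lists of related genes, with black bars for list medians. The TRiC subunits all lie left of 0 with a median of −0.47, the tubulins have a median of −0.39, and the medians of the other lists lie between −0.16 and 0.17.

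A pair of transcription factors was read whatever their values. HSF1, the activator of heat shock genes, had 97.6 and 96.6 TPM in DMSO and 98.8 and 110.3 TPM in JG342. The change of 0.10 ± 0.10 SE did not pass (limma adjusted p 0.507). MYC, a driver of growth genes, had 285 and 291 TPM in DMSO and 181 and 182 TPM in JG342. The groups were far apart, with a log2 change of −0.66 ± 0.09 SE (limma adjusted p 0.00206).

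The genes nearest in pattern to the subunits were sought over the 4 libraries among 3196 other genes whose mean reached 50 TPM. The measure was the root mean square distance between a gene's centred log2(TPM + 1) profile and the mean centred profile of the 8 subunits. The nearest was DNAJC9, a J-domain partner of HSP70 that also handles histones, at 0.0108. AQP3, a water and glycerol channel, was at 0.0187, and DDX23, a helicase of the spliceosome, at 0.0197. NOLC1 and NOL11, which act in the nucleolus, were at 0.0203 and 0.0233. The subunits themselves lay from 0.0223 (CCT6A) to 0.109 (CCT2) from their own mean profile. With 4 libraries many genes come close by the treatment difference alone.

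Copies with near-identical sequence were few among the subunit transcripts. The search asked for 95% identity or more across 20% or more of a transcript. GENCODE release 29 held CCT8P1, a processed pseudogene that matched CCT8 at 95.7% over 85.1% of its transcript, and an antisense transcript beside CCT5 that matched over 21.9%. Their levels were not analysed here, so the values of CCT8 and CCT5 may include reads from them. TCP1, CCT2, CCT3, CCT4, CCT6A and CCT7 had no such match.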

How the data were processed

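RNA from 4 libraries of MM.1S cells was sequenced on a BGISEQ-500, per the labels' protocols. The authors deposited 1 TPM value per gene and library. No header names the unit, and TPM was inferred from library totals between 994463 and 994718. HISAT2 2.0.4, Bowtie2 2.2.5 and RSEM 1.2.12 are named, without roles, per the submitters' processing notes. Build, annotation, filters and strandedness are not given in the sources used here.

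Genes averaging 1 TPM or more (12042) were fitted with limma 3.58.1 in R 4.3.3 on log2(TPM + 1), with treatment as the only term and a mean-variance trend, which left 4015 genes out. This scale understates changes of low genes. All p-values were two-sided and adjusted over all fitted genes, with a threshold of 0.05. The fit was tested on simulated data. Standard errors rest on 2 residual and 6.89 prior degrees of freedom.

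Same-numbered libraries share a prefix in their descriptions, and their deviations from the treatment means correlated across genes (r = 0.27), so the number was used as a block in an alternative fit, which passed 4207 genes against 2221. That fit has 1 residual degree of freedom and an infinite prior. Other alternatives changed the pseudocount, filter, scaling, variance trend or left out a library.

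The members and lists were chosen with earlier results of these data known. Named genes were the 8 subunits, HSF1, MYC, head-to-head or overlapping neighbours, up to 6 called genes of each list (or its highest gene if none was called) and the 5 nearest patterns. HSPD1, RUVBL1, RUVBL2, CCT8L2, TUBE1 and the cell markers were named outside this rule, after their values were seen. DNAAF10 is listed as WDR92, and PDCL2, ACTC1, MS4A1 and CD3D were not analysed here. Results of some listed genes are not reported here. All 8 accessions were found in the RefSeq table for GRCh38.p14. Copies were searched with BLAST 2.17.0.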

Additional observations from a re-analysis of the deposited data

How the results depend on the processing

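All 8 subunit genes kept a negative log2 change under each of the 12 alternatives, and CCT2 and TCP1 passed in every one. Of the others, CCT4 and CCT7 did not pass without a filter on low values (−0.42 and −0.33, limma adjusted p 0.0584 and 0.0714). CCT4, CCT5 and CCT7 did not pass without the variance trend (−0.42, −0.45 and −0.33, limma adjusted p 0.0682, 0.0538 and 0.108), which left 4 subunit genes. CCT8 passed with equal medians (−0.34, limma adjusted p 0.0469), with the replicate block (−0.28, limma adjusted p 0.00259) and with the replicate block and equal medians together (−0.34, limma adjusted p 0.0122). The block changed no other call of a subunit gene and gave ACTB as lower (−0.19, limma adjusted p 0.0268), which was not called with the block and equal medians (−0.26, limma adjusted p 0.183). The median change of the 8 was −0.54 with equal medians, with and without the replicate block, and −0.42 after quantile normalization, and that of the summed TPM was −0.51 with equal medians, with and without the replicate block. BUB3, CCNE1, CCT6B, GNB3, HSPE1, KIF18A, RACK1 and TUBB2B were not called without the filter (limma adjusted p 0.0513 to 0.116), BUB3, CCNE1, HSPE1, KIF18A and RACK1 without the trend (0.0522 to 0.0920), and HSPE1 after quantile normalization (0.0536). Equal medians moved the median of all genes from 0.03 to −0.03. The count of all called genes was 828 without the filter, 4207 with the replicate block and 3985 with the block and equal medians.

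When 1 library was left out, the count of called subunit genes ran from 2 to 6 and that of all genes from 767 to 1825. CCT3 ran from −0.50 to −0.48, CCT4 from −0.49 to −0.34, CCT5 from −0.49 to −0.41, CCT6A from −0.54 to −0.46 and CCT7 from −0.36 to −0.29. In these fits a lone library is assumed to vary like the other group. TBCA turned negative with equal medians (−0.053, with and without the replicate block), and without 1 library it ran from −0.017 to 0.048. PDCD5 turned positive after quantile normalization (0.0040). Without 1 library PDCD5 ran from −0.15 to 0.037, ACTB from −0.43 to 0.043 and TSACC from −0.74 to 0.023, and none was called. The cause was not tested. Depth is not recorded in TPM, so no counting limit is given.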
